A study of Oryza sativa with 6 samples.

Results

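The genes described here are those of the LONELY GUY (LOG) family of rice, *LOG* and its LOG-like relatives *LOGL1*, *LOGL2*, *LOGL3*, *LOGL4*, *LOGL5*, *LOGL6*, *LOGL8*, *LOGL9* and *LOGL10*, in leaves that overexpress the MADS-box gene *OsMADS29*. They were taken by name, 10 names in all, from a current rice gene table, and the rule uses no measured value. The table held 9 of them (*LOGL2* is not listed in it), and the array's annotation assigned probe sets to 7 of these, 8 probe sets in all, among the 17905 genes that have a probe set of their own. *LOGL4* and *LOGL8* have no probe set assigned to them and were not analysed here. Total RNA came from leaves of rice var. PB1, an indica variety, taken at positions 3 and 4 below the flag leaf. There were 3 wild-type (WT) samples and 3 MADS29OX samples, 1 Affymetrix rice array each. MADS29OX plants carry the *OsMADS29* cDNA behind a ubiquitin promoter (pUBI) that is active in most tissues, while the WT plants are untransformed. The transcript of a transcription factor normally made in seeds is thus present in the leaf. The study's text reports no measurement of the protein in these leaves. The transgenic plants, few because regeneration was poor, were stunted and did not set seed. The 3 samples of each group are described as biological replicates, but plant age, harvest time and how many transgenic lines the arrays cover could not be read from the material used. The p-values measure the spread between these samples.

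Cytokinins are adenine-derived hormones that promote cell division in the shoot. Isopentenyltransferases (IPT) make them as nucleotides, which are inactive, and LOG enzymes, cytokinin riboside 5′-monophosphate phosphoribohydrolases, release the active free base from the nucleotide in a single step. Rice *LOG* is the founding member, known from a mutant whose shoot and floral meristems are not maintained, and the LOG-like genes encode related enzymes in other parts of the plant. Cytokinin oxidases/dehydrogenases (CKX) break the hormone down, and histidine kinase receptors, phosphotransfer proteins and response regulators carry its signal. The comparison of MADS29OX with WT leaves asks whether the genes of this activation step differed in plants in which the study looked for a shift of the hormone balance. The study reports more *trans*-zeatin, a cytokinin, and less auxin (indole acetic acid) in MADS29OX leaves. Whether the LOG family signals bear on these levels was not tested.

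*OsMADS29* (LOC4328443), the check of the labels, read 6.70, 6.37 and 6.64 in WT leaves and 2016, 1788 and 3590 in MADS29OX leaves, a log2 fold change of at least 7.20. Values are probe set signals on the linear scale of the deposited table. Signals below 16 were treated as not measured and raised to 16 before log2 was taken, and a fold against a group that lies wholly under this floor is a lower bound. The array medians lay between 5.951 and 5.997, and between 21.6% and 21.9% of probe sets per array were above the floor. WT arrays correlated with each other at 0.992 to 0.997 and MADS29OX arrays at 0.936 to 0.969, and the median SD of log2 signals over 7011 genes with a mean of 32 or more was 0.0796 in WT and 0.250 in MADS29OX leaves. Genes of the photosynthetic leaf were bright in both groups, for example *RCA*, the rubisco activase gene, at 12588 to 12841 in WT and 10204 to 11100 in MADS29OX leaves. Of 6 measured shoot meristem markers 5, among them the class I KNOX genes *OSH1*, *OSH43* and *OSH71*, lay under the floor on all arrays. The exception was *FON1*, a receptor kinase gene, at 19.0 to 41.0.

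In MADS29OX leaves *LOGL9* was lower than in WT leaves, and the other 4 LOG family genes that could be tested were not called. *LOGL1* was lower by less than 2-fold, *LOG* and *LOGL3* varied between arrays of 1 group by more than the groups differed, and *LOGL5* lay close to the floor. *LOGL6* and *LOGL10* were under the floor on all 6 arrays. A gene was called at an adjusted p of at most 0.05 (limma, Benjamini-Hochberg over the 14238 probe sets that passed the floor on 1 array or more) together with a change of at least 2-fold. By this rule 1 of 5 tested family members was called, and 10.1% of all 10045 tested genes, so for 5 genes the count is near the background. In the direction of *LOGL9*, 5.03% of the tested genes were called lower and 5.05% were called higher. The median log2 fold change (MADS29OX minus WT) was -0.29 over the 5 members and -0.01 over all tested genes, and all 5 values were below 0 against 51.3% of all tested genes. No test was run on the list as a whole.

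**Figure D1:**
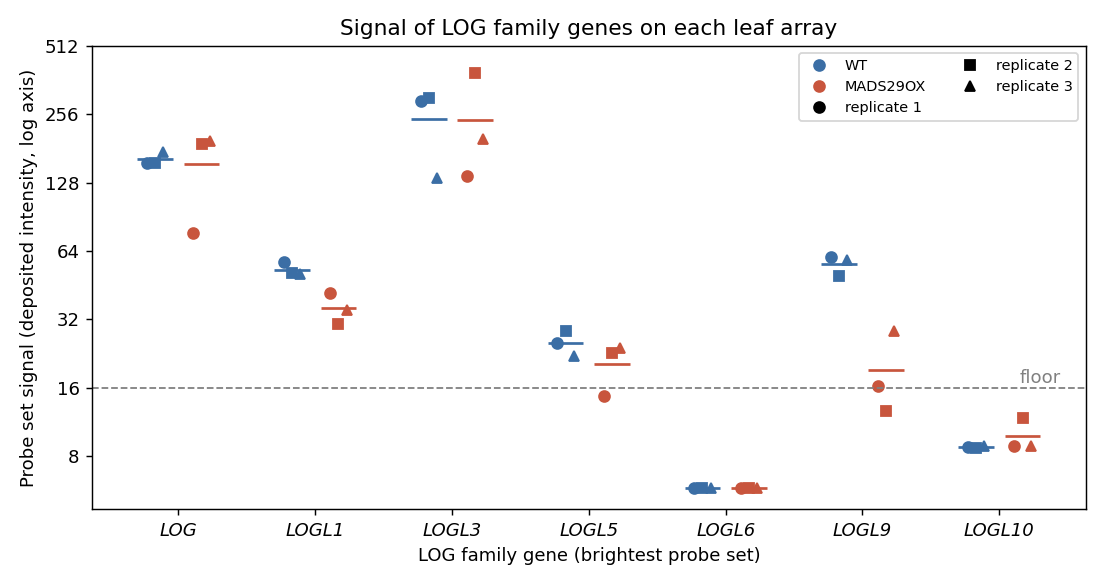
Signal of the 7 measured LOG family genes on each array (vertical axis, deposited intensity, log scale; points are single arrays, shapes are replicate numbers, bars are group means of 3, the dashed line is the floor of 16). The MADS29OX arrays of *LOGL9* and *LOGL1* all lie below the WT arrays, those of *LOG* and *LOGL3* overlap with WT, and *LOGL6* and *LOGL10* stay under the floor.

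*LOGL9* (LOC4347769) gave signals of 60.1, 49.5 and 58.6 on the WT arrays and 16.2, 12.6 and 28.4 on the MADS29OX arrays. The groups did not overlap, and the lowest WT signal was 1.74 times the highest MADS29OX signal. MADS29OX replicate 2 was under the floor, replicate 1 was next to it, and replicate 3 was the highest of its group. The mean signal was 56.0 ± 5.70 (SD, n = 3) in WT and 19.1 ± 8.28 (SD, n = 3) in MADS29OX leaves. The log2 fold change was -1.52 (standard error 0.25, adjusted p = 0.00833 from limma), a 2.87-fold lower signal with a 95% interval from 1.89-fold to 4.36-fold lower. Among all tested genes 2.12% had a lower log2 fold change. An exact permutation test (2-sided) of the 3 arrays against 3 gave p = 0.1, the smallest value that this design allows.

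Because 1 of the 3 MADS29OX arrays lay under the floor and another just above it, the size of the *LOGL9* change was set in part by how low signals were handled. With the deposited values and no floor the log2 fold change was -1.63, and with a floor of 32, which covers all MADS29OX arrays, it was -0.80, that is at least 1.75-fold lower. The call was lost in 4 of 23 alternatives. It was lost with a floor of 32 because of the fold limit (adjusted p = 0.00282). In 3 settings the adjusted p was too high, at 0.0848 when 16 was added to each value, 0.103 without a floor and 0.157 without the filter on dim probe sets. In those 3 settings all 57258 probe sets entered the fit, 43020 of them under the floor on all arrays. Over the 14238 probe sets only, adding 16 and leaving out the floor each kept the call (adjusted p = 0.00557 and adjusted p = 0.00752). Leaving out any 1 array kept it too, with adjusted p from 0.00200 to 0.0426.

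**Figure D2:**
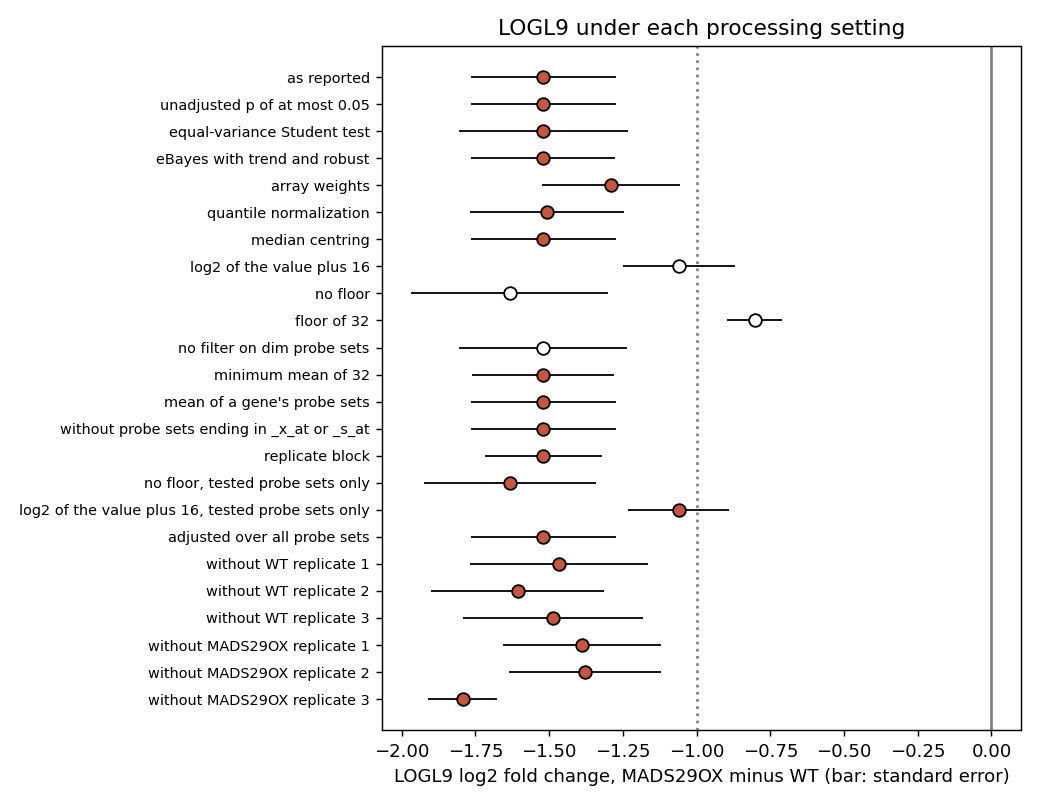
Log2 fold change of *LOGL9* (horizontal axis, MADS29OX minus WT, with the standard error as a bar) for each processing setting (vertical axis). Filled points passed the adjusted p and the 2-fold limit marked by the dotted line, or, in the row named for it, the unadjusted p and the same limit; the 4 open points did not, and all values lie below 0, from -1.79 to -0.80.

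*LOGL1* (LOC4327684) gave 57.3, 51.3 and 50.6 on the WT arrays and 41.7, 30.5 and 35.2 on the MADS29OX arrays. All 3 MADS29OX signals were below all 3 WT signals, with the lowest WT signal 1.21 times the highest MADS29OX signal. The means were 53.1 ± 3.68 (SD, n = 3) and 35.8 ± 5.62 (SD, n = 3). The log2 fold change was -0.58 (standard error 0.13, adjusted p = 0.0276 from limma), a signal 1.49-fold lower with a 95% interval from 1.19-fold to 1.88-fold lower, so the whole interval lies under the 2-fold limit. Without that limit 2 of the 5 members, *LOGL1* and *LOGL9*, had an adjusted p under the threshold with a lower signal, against 15.1% of all tested genes. The same 2 members had groups that did not overlap with MADS29OX lower, as did 25.4% of all tested genes. The exact permutation test (2-sided) for *LOGL1* also gave p = 0.1. The adjusted p of *LOGL1* was above 0.05 when any 1 WT array was left out (0.0815 to 0.108) and without MADS29OX replicate 3 (0.0708). It was also above 0.05 when 16 was added to each value (0.144), without a floor (0.138), without the filter on dim probe sets (0.273) and when adjusted over all probe sets (0.111). Its single probe set is of the type (_x_at) that can bind transcripts of related genes, so a share of this signal from another family member was not tested.

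*LOG* itself (LOC4324445) gave 156, 157 and 174 on the WT arrays and 77.1, 189 and 196 on the MADS29OX arrays. The WT arrays lay within 1.12 times of each other, whereas MADS29OX replicate 1 was the lowest of all 6 arrays and replicates 2 and 3 were the highest. The log2 fold change was -0.19 (standard error 0.37, adjusted p = 0.735 from limma), with a 95% interval from -1.11 to 0.72, which includes changes of 2-fold in the lower direction. Without MADS29OX replicate 1 it was 0.25 (adjusted p = 0.102), so the direction rests on that array. The spread of *LOG* over the MADS29OX arrays (SD 0.76 on the log2 scale) was larger than that of 95.5% of the genes with a mean of 32 or more, and its WT spread (SD 0.09) than that of 57.8%. The second *LOG* probe set stayed between 5.82 and 6.02 on all 6 arrays, under the floor, and was not tested.

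*LOGL3* (LOC4331344) gave 293, 303 and 134 on the WT arrays and 136, 389 and 200.1 on the MADS29OX arrays. It varied within both groups, and WT replicate 3 and MADS29OX replicate 1 had nearly the same low signal. The log2 fold change was -0.06 (standard error 0.49, adjusted p = 0.945 from limma), with a 95% interval from -1.25 to 1.14, so a 2-fold change in either direction lies inside the interval. It turned positive when WT replicate 1, WT replicate 2, MADS29OX replicate 1 or MADS29OX replicate 3 was left out. In WT leaves, whose arrays otherwise lay close together, the SD of *LOGL3* was 0.66 on the log2 scale, larger than that of 99.7% of the genes with a mean of 32 or more. In MADS29OX leaves its SD was 0.76, larger than that of 95.6% of them.

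*LOGL5* (LOC4334848) gave 25.3, 28.4 and 22.1 on the WT arrays and 14.7, 22.7 and 23.9 on the MADS29OX arrays. The groups overlapped, and MADS29OX replicate 1 was under the floor. The log2 fold change was -0.29 (standard error 0.19, adjusted p = 0.307 from limma), with a 95% interval from -0.75 to 0.17, which does not reach 2-fold in either direction on this floored scale. *LOGL6* (LOC4336417) stayed between 5.77 and 5.80 on all arrays. *LOGL10* (LOC4348914) stayed between 8.68 and 8.87 on 5 arrays and reached 11.8 on MADS29OX replicate 2. Neither gene was tested, and a signal under the floor on this array does not show that a gene is silent.

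**Figure D3:**
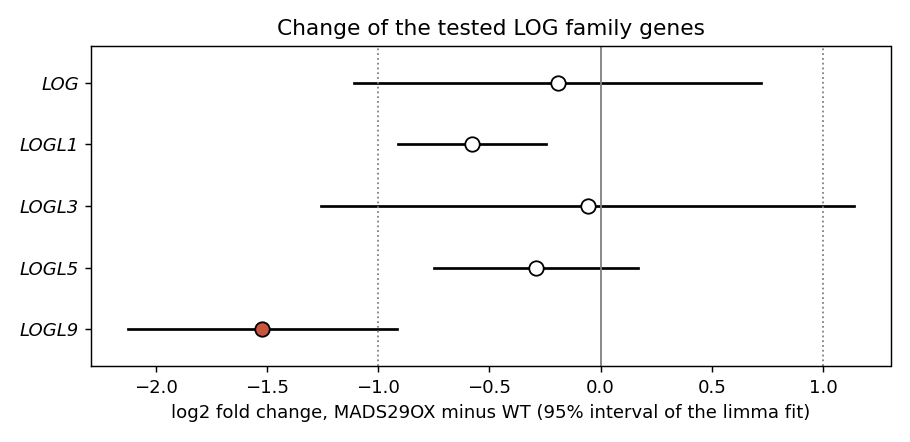
Log2 fold change of the 5 tested LOG family genes (horizontal axis, MADS29OX minus WT; points are estimates from 3 arrays per group, bars are 95% intervals of the limma fit, dotted lines mark 2-fold). The filled point, *LOGL9* at -1.52, is the 1 call; the interval of *LOGL1* excludes 0 without reaching 2-fold, and those of *LOG*, *LOGL3* and *LOGL5* include 0.

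The changes of the members were also set against each other, as the within-array difference of their log2 signals, over 10 pairs. In all 4 pairs that hold *LOGL9* the MADS29OX arrays lay apart from the WT arrays, and in the other 6 pairs they overlapped. The 4 pairs share the *LOGL9* signals, whose groups were already apart, so they are not 4 separate results. Groups apart with MADS29OX lower were found for 25.4% of all tested genes taken singly, and no pairs of other genes were formed. *LOGL9* fell further than *LOG* by 1.33, further than *LOGL3* by 1.46, further than *LOGL5* by 1.23 and further than *LOGL1* by 0.94 on the log2 scale. The exact permutation p (2-sided) was 0.1 for each of these 4 pairs and 0.25 after adjustment over the 10 pairs. The exact test allows no smaller unadjusted value with 3 arrays against 3, and no other test of these differences was run.

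Within the MADS29OX group the members took different orders. MADS29OX replicate 1 was the lowest of its group for *LOG*, *LOGL3* and *LOGL5*, at -0.88, -0.69 and -0.36 relative to the group mean on the log2 scale, but the highest for *LOGL1* at 0.23. *LOGL9* was highest on MADS29OX replicate 3, at 0.55 above its group mean. The cytokinin-inducible type-A response regulator genes, negative regulators of the signal, had another order over the same arrays: *RR4* was highest on MADS29OX replicate 1 (0.64), and *RR6* and *RR9* were lowest on replicate 3 (-0.71 and -1.13). With 3 arrays these orders are a description. *OsMADS29* itself was highest on replicate 3. Over all genes the median gap of an array to the mean of the other 2 of its group was 0.268 on the log2 scale for MADS29OX replicate 1, 0.285 for replicate 2 and 0.206 for replicate 3, and replicates 1 and 2 shared the lowest correlation, 0.936.

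**Figure D4:**
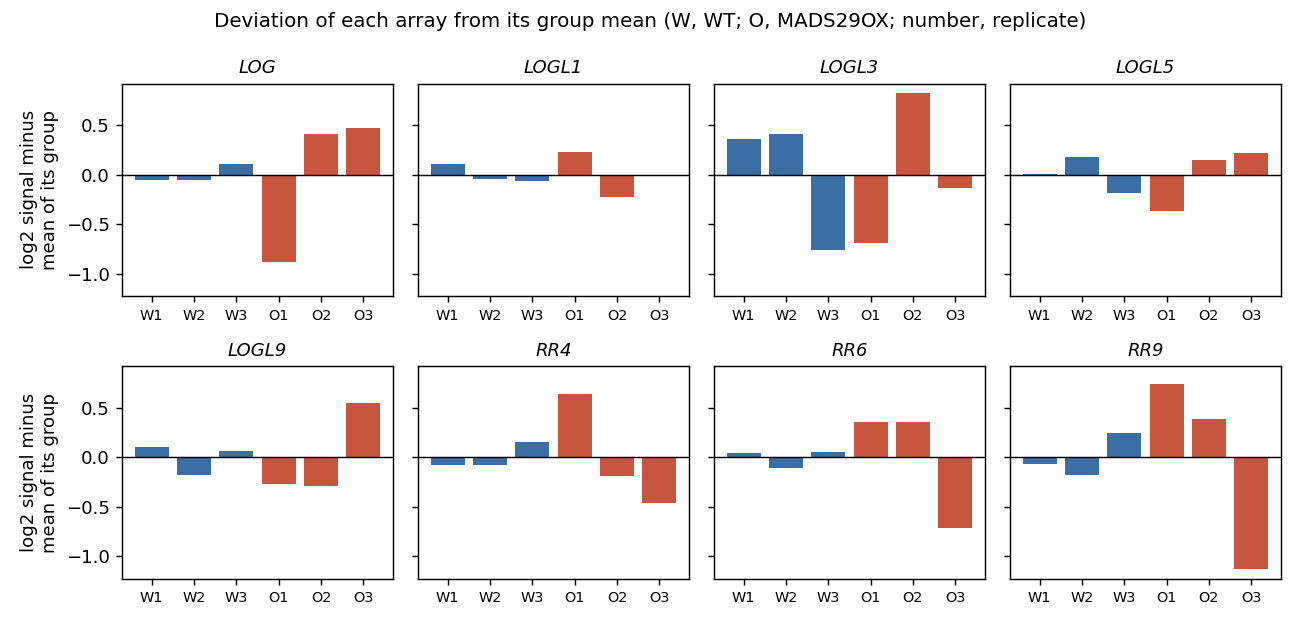
Deviation of each array from the mean of its own group (vertical axis, log2 signal) for the 5 tested LOG family genes and the response regulator genes *RR4*, *RR6* and *RR9*; bars are single arrays, 3 WT and 3 MADS29OX. *LOG*, *LOGL3* and *LOGL5* are low on MADS29OX replicate 1, *LOGL3* is also low on WT replicate 3 (-0.77), and *RR6* and *RR9* are low on MADS29OX replicate 3.

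Among 1166 other named genes with a mean of 32 or more, the 3 whose log2 signals correlated best with those of *LOGL9* over the 6 arrays were *OsZIP6*, of the zinc and iron transporter family (Pearson's r = 0.991), *OsTrxh1*, an h-type thioredoxin gene (0.991), and *NAAT1*, which encodes a nicotianamine aminotransferase of iron acquisition (0.987). *NAAT1* was called lower (log2 fold change of -2.68, adjusted p = 0.00792 from limma) and so was *OsTrxh1* (-1.03, adjusted p = 0.00812), while *OsZIP6* had -0.39. All 3 shared with *LOGL9* a higher signal on MADS29OX replicate 3 than on the other MADS29OX arrays, for example 52.7, 72.5 and 171 for *NAAT1*. For *LOG*, a comparison added after the values were seen, the best match was *NIA1*, a nitrate reductase gene (r = 0.989). *NIA1* read 2008, 1971 and 2265 in WT and 1018, 2345 and 2205 in MADS29OX leaves, with the same low replicate 1. For *LOGL3*, added in the same way, the best matches were the methionine sulfoxide reductase gene *MSRA4* (0.920), the 4-coumarate:CoA ligase gene *Os4CL3* (0.914) and the Aux/IAA gene *IAA1* (0.855). *Os4CL3* had 41.9, 37.6 and 19.0 on the WT arrays and *IAA1* had 178, 165 and 85.3, so both shared the low WT replicate 3. These correlations rest on 6 arrays in 2 groups and were picked as the highest of many, so they describe these arrays and carry no p.

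The genes next to the 5 tested members in the gene table were read as well. Each of these members had at least 1 directly adjacent gene that was tested, 6 such genes in all. With limma 0 of the 6 were called, beside 10.1% of all tested genes. An adjusted p under the threshold was found for 1 of the 6, beside 2667 of all 10045 tested genes, so for 6 genes both counts are near the background. That gene was the haemoglobin gene *hb1* beside *LOGL3*, with a log2 fold change of -0.61 (adjusted p = 0.0270). The tested gene beside *LOGL9*, LOC4347768, had -0.13 (adjusted p = 0.346). Members that were not tested had called neighbours. *HIRL1* beside *LOGL8* was higher (2.58, adjusted p = 0.00550 from limma), and LOC4333806 beside *LOGL4* was lower (-1.20, adjusted p = 0.00256). LOC9272664 beside *LOGL6* and LOC4348915 beside *LOGL10* were tested and not called. LOC4348915 was lower by less than 2-fold (-0.52, adjusted p = 0.0158 from limma). LOC9272664 exceeded the floor only on MADS29OX replicates 1 and 3, so the size of its change (0.15) depends on the floor.

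Of the other genes of cytokinin metabolism only CKX genes were read, because no other listed name was found in the gene table. This is a limit of matching by name. The study reports cytokinin-O-glucosyl transferase genes as upregulated in MADS29OX plants, and none of these was matched here. Of 26 names listed (IPT, CYP735A, CKX and cis-zeatin O-glucosyltransferase genes) the tables placed 7, all CKX genes, of which 5 had a probe set and 1 was above the floor. This was *CKX11*, with 98.4, 109 and 78.9 on the WT arrays and 74.1, 56.6 and 89.2 on the MADS29OX arrays. The groups overlapped, and the log2 fold change was -0.39 (standard error 0.20, adjusted p = 0.218 from limma, 95% interval from -0.90 to 0.11). *CKX1*, *CKX4* and *CKX5* lay between 6.27 and 8.65 on all arrays, and *CKX3* was also under the floor. The IPT step, which supplies the substrate of LOG enzymes, was not analysed here.

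Downstream of the hormone, 13 of 17 measured signalling genes were tested, and 2 were called higher, 1 was called lower and 10 were not called, beside the 10.1% called among all tested genes. Without the fold limit 6 of the 13 had an adjusted p under the threshold, beside 2667 of all 10045 tested genes. Of the 6, 4 were lower, beside 15.1% of all tested genes that were lower by this measure. The 3 lower genes under 2-fold, named after their values were seen, were the receptor gene *HK4* (-0.83 on the log2 scale, adjusted p = 0.00951 from limma), the phosphotransfer gene *HP1* LOC4347886 (-0.70, adjusted p = 0.00166) and the response regulator gene *RR24* (-0.82, adjusted p = 0.0170), and their groups did not overlap. *RR9* gave 21.1, 19.5 and 26.3 in WT and 169, 132 and 46.2 in MADS29OX leaves, higher by 2.19 on the log2 scale (limma, adjusted p = 0.0239, standard error 0.49). The study writes *OsRR9/10* for this regulator, and *RR10* had no probe set assigned to it. A share of the *RR9* signal from *RR10* was not tested. *RR6* gave 39.8, 35.9 and 40.0 in WT and 108, 108 and 51.3 in MADS29OX leaves, higher by 1.13 on the log2 scale (adjusted p = 0.0432). *HK5*, a cytokinin receptor gene, gave 326, 329 and 351 in WT and 159.5, 171 and 129 in MADS29OX leaves, with a difference of -1.14 on the log2 scale (adjusted p = 0.00238). The groups of *RR9*, *RR6* and *HK5* did not overlap either. Nor did those of *RR4*, which was higher by 0.72 on the log2 scale and not called (adjusted p = 0.127 from limma). *RR4* gave 15.6, 15.5 and 18.9 in WT and 43.4, 24.4 and 20.3 in MADS29OX leaves. With 2 WT signals under the floor, the size of its change depends on the floor. In all, 4 of the 13 genes lay apart and lower, beside 25.4% of all tested genes. A further 3 lay apart and higher, beside 2059 of all 10045 tested genes. The median log2 fold change of the 13 genes was -0.01.

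Markers that could move with the *LOGL9* result were read on the same arrays. The summed signal of 6 leaf markers was 26613 to 27501 in WT and 30468 to 39997 in MADS29OX leaves. Of the 6, 2 were called higher (*CAB2R* and *RCABP69*) and 1 lower (*PSAG*), beside 5.05% and 5.03% of all tested genes. The summed signal of the 6 measured meristem markers was 50.7 to 57.6 in WT and 49.7 to 71.1 in MADS29OX leaves. With 5 of the 6 under the floor on all arrays, this sum varied mainly with *FON1* and cannot show whether meristem content differed. Of 4 measured leaf senescence markers 1 was called, beside 10.1% of all tested genes. This was the stay-green gene *SGR*, which was lower (log2 fold change of -2.28, adjusted p = 0.0147 from limma). *NYC1* (0.40), *RCCR1* (0.55) and *NOL* (0.12) had log2 fold changes above 0 and were not called, so the list was split. The sum of the senescence markers was 539.6 to 566 in WT and 365 to 581 in MADS29OX leaves. Of 4 genes read as seed markers none was called with limma, beside the same 10.1%, and 1 was under the floor on all arrays. Their sum was 339 to 357 in WT and 249.95 to 340 in MADS29OX leaves. In MADS29OX leaves the spread of this sum came mostly from *PBZ1*, at 40.5, 148 and 66.9. *GLB1* (150 to 160), *GLUA2* (74.5 to 77.0) and *PBZ1* (107 to 117) were also above the floor in WT leaves. Their signal is thus not particular to seed on these arrays, and the sum does not measure seed content. The part of these differences in the *LOGL9* result was not tested. In whole leaves, fewer cells that express a gene and less of its RNA per cell cannot be told apart.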

How the data were processed

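For each array the authors deposited 1 linear intensity per probe set; how background, normalization and summary were handled could not be read from the sources. No further scaling was applied, since the array medians were nearly equal. After the 123 control probe sets were removed, intensities under 16 were set to 16 and converted to log2. limma 3.58.1 (R 4.3.3; lmFit and eBayes, group term only) was run on the 14238 probe sets that exceeded 16 on any array, with Benjamini-Hochberg adjustment over all of them; the fit was tested on simulated data. Each gene was represented by its brightest probe set by the mean of 6 arrays, among the 22436 to which the platform annotation gives 1 gene. Names came from RefSeq's table of assembly ASM3414082v1 (Python 3.11.15); no coordinates are given, since no build is named for the array, and no sequence was used here. Arrays limit precision by their number.

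Every family member is named, with called genes of the cytokinin lists, up to 4 genes of cytokinin metabolism by mean signal, and the 3 named genes most correlated with a called member; likeness for *LOG* and *LOGL3*, the neighbours, *RR4*, *HK4*, *HP1*, *RR24*, *hb1* and LOC4347768 were added after values were seen. The rule for the members uses names only, but the family and the lists were chosen with earlier results of these data known. Alternatives covered the test, the adjustment, the fold limit, scaling, low values, the choice of probe set, a block for the replicate number and the removal of each array in turn.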

Additional observations from a re-analysis of the deposited data

How the results depend on the processing

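The count of LOG family genes called was 1 as reported, 2 with no fold limit, and 0 with log2 of the value plus 16, with no floor, with a floor of 32 and with no filter on dim probe sets; in the other settings it was 1. With no fold limit 2667 of all tested genes were called, with log2 of the value plus 16 the count was 431 and with no filter 352, against 1012 as reported. No gene of the cytokinin metabolism list was called by limma in any setting (0 also at an unadjusted p under 0.05 and by the equal-variance Student test). As reported, that list held 1 tested gene, *CKX11*. It held 5, all CKX genes, in the settings that kept all probe sets, so these counts do not cover the rest of cytokinin metabolism. The log2 fold change of *LOG* was 0.25 without MADS29OX replicate 1, and that of *LOGL3* was 0.12, 0.15, 0.29 and 0.01 without WT replicate 1, WT replicate 2, MADS29OX replicate 1 and MADS29OX replicate 3. With 1 array left out, *LOG* ranged from -0.43 to 0.25, *LOGL1* from -0.69 to -0.47, *LOGL3* from -0.47 to 0.29, *LOGL5* from -0.40 to -0.11 and *LOGL9* from -1.79 to -1.38. *LOGL1* had no value without probe sets ending in _x_at or _s_at, and *LOGL5* none with a floor of 32 or a minimum mean of 32. Adjustment over all probe sets and the 2 settings restricted to the tested probe sets were chosen after seeing the data; with the first the adjusted p of *LOGL9* was 0.0335 and that of *LOGL1* 0.111. With the equal-variance Student test the adjusted p was 0.0723 for *LOGL1* and 0.0423 for *LOGL9*. The labels share replicate numbers across groups, but same-numbered arrays did not deviate together (r of 0.01, -0.03 and -0.12 over 7011 genes). With the replicate number as a block the family's count stayed at 1 and that of all genes was 946, and *LOGL9* had an adjusted p of 0.0197. Signals near the floor, as those of *LOGL9* in MADS29OX leaves and of *LOGL5*, carry little information on the size of a change.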
